A study of Mus musculus with 9 samples.

Results

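The microRNAs (miRNAs) of the imprinted Dlk1-Dio3 locus on mouse chromosome 12 were followed in extracellular vesicles of podocytes, which form the outer layer of the kidney's filtration barrier. Members were chosen by name as 32 mature miRNAs of the locus, 1 arm per hairpin, out of 1915 identifiers in each deposited table. Of the 32, 21 were listed above 0 in at least 1 library and 11 in none, while 13 were listed in all 9 libraries. The cells were a conditionally immortalized mouse podocyte line, allowed to differentiate over 10 days with fetal bovine serum present. They were then held for 48 h in 1 of 3 media, with 3 libraries each: normal glucose (5.3 mM), high glucose (30 mM), or 5.3 mM glucose with 24.7 mM mannitol as the osmotic control. All groups came from the same line. Separate cultures are not stated for replicate libraries, and p-values therefore speak only of the spread among libraries, which may be technical. A polymer reagent was used to precipitate the vesicles out of the medium, and no library of whole cells was analysed here, so fewer vesicles of a kind and less of a miRNA per vesicle cannot be told apart.

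The locus lies between Dlk1 and Dio3 and is one of the largest miRNA clusters of placental mammals. Its miRNAs are processed from long non-coding RNAs, among them Meg3, Rian and Mirg, that are transcribed from the maternal chromosome only. One group of hairpins lies antisense to Rtl1, a retrotransposon-derived gene transcribed from the paternal chromosome, and these miRNAs, miR-127 and miR-433 among them, are known to direct cleavage of the Rtl1 transcript. A larger group runs from miR-379 to miR-410 and is best known from brain, placenta and embryo, where miR-134 limits dendritic spine growth. In mouse kidney, that group has been linked to diabetic injury through a long host RNA induced in mesangial cells by high glucose and endoplasmic reticulum stress.

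RefSeq (GRCm38.p6) held a hairpin position for all 32 members, all on the plus strand and within 158 kb, and a mature sequence for 29. Sequences are given for the most abundant members, for the 4 whose levels were lowest in high glucose, and for near copies that fared differently. Capitals mark the seed, bases 2 to 8, which guides target pairing.

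The first set holds the 3 most abundant members, then those that lay below every control library in high glucose beside miR-409-3p.
mmu-miR-127-3p: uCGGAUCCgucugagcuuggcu
mmu-miR-409-3p: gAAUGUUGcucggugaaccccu
mmu-miR-379-5p: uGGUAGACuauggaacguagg
mmu-miR-382-5p: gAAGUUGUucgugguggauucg
mmu-miR-433-3p: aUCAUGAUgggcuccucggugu
mmu-miR-543-3p: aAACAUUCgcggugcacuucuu

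The second set holds members with a near copy at the locus, AU-rich miR-369-3p, and the opposite arm of miR-382.
mmu-miR-495-3p: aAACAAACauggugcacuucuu
mmu-miR-381-3p: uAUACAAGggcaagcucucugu
mmu-miR-300-3p: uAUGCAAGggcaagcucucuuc
mmu-miR-376a-3p: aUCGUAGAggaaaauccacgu
mmu-miR-376b-3p: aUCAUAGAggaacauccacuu
mmu-miR-369-3p: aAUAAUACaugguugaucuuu
mmu-miR-382-3p: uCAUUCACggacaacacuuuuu

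Base by base, miR-543-3p and miR-495-3p differ at 4 positions, 2 of them in the seed. The pair miR-381-3p and miR-300-3p differs at 3 positions, with 1 in the seed, as does the pair miR-376a-3p and miR-376b-3p. No 2 of the 29 members with a sequence shared a seed. Seeds were shared with miRNAs outside the 32 for 5 members, and of those partners 2 were listed: miR-362-3p, which has the seed of miR-329-3p, at a mean of 81.3 CPM (its count scaled to the summed miRNA counts of the library), and miR-344d-3p, which has that of miR-410-3p. In both cases the partner outside the locus had the higher mean over the 9 libraries, since miR-329-3p was listed in no library and miR-410-3p had a mean of 21.9 CPM.

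Depth set the limit of detection. Libraries held 725211 to 2553690 miRNA counts, no count from 1 to 9 occurred, and a listed 0 therefore stands for at most 9 reads, which is 3.52 CPM in the deepest library and 12.4 CPM in the shallowest, high glucose replicate 1. The number of members listed ran from 15 in that library to 20 in mannitol replicate 3. Of the members, mmu-miR-341-3p was listed in mannitol replicate 3 alone, with 10 counts, and mmu-miR-434-3p in mannitol replicate 1 alone, with 12. The third rare one, mmu-miR-487b-3p, was listed in mannitol replicate 3 and high glucose replicate 3, and none of these was tested. Whole-series facts bear on the members as follows. Podocyte-rich miRNAs (miR-30a-5p, miR-30d-5p and miR-10a-5p) summed to 211300 to 287000 CPM per library, while the protein markers of podocytes are not measured by this assay. The blood, immune and liver markers summed to 13500 to 33520 CPM, with 7 of 8 listed and miR-142a-3p at 0 throughout. Whether RNA of the serum in the medium contributes to the members was not tested.

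Members never listed were mmu-miR-337-5p, mmu-miR-431-5p and mmu-miR-136-5p near the proximal end, and mmu-miR-299a-5p, mmu-miR-380-3p, mmu-miR-329-3p, mmu-miR-376c-3p, mmu-miR-376b-3p, mmu-miR-376a-3p, mmu-miR-154-5p and mmu-miR-377-3p in the miR-379 to miR-410 group. They did not form a single block: miR-329-3p lies between the well detected miR-323-3p and miR-494-3p, and the longest run of neighbours among them was the 3 miR-376 hairpins. Split by position, 5 of the 8 proximal members, from miR-337 to miR-370 (the Rtl1 antisense and Rian group, of which miR-337 has no annotated host), and 16 of 24 of the miR-379 to miR-410 group were listed. Of all other identifiers in the tables, 24.3% were listed in any library, against 65.6% of the members. These are not like sets, since the members are chosen arms of their hairpins and the others include opposite arms. Of the 75 further identifiers of the locus itself, 10 were listed. In sequence the 10 never-listed members with an entry had a median GC of 41.9% (36.4% to 57.1%) and the 19 listed ones 47.6% (23.8% to 68.2%). Both sets had a median length of 22 bases, and these ranges overlap.

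**Figure D1:**
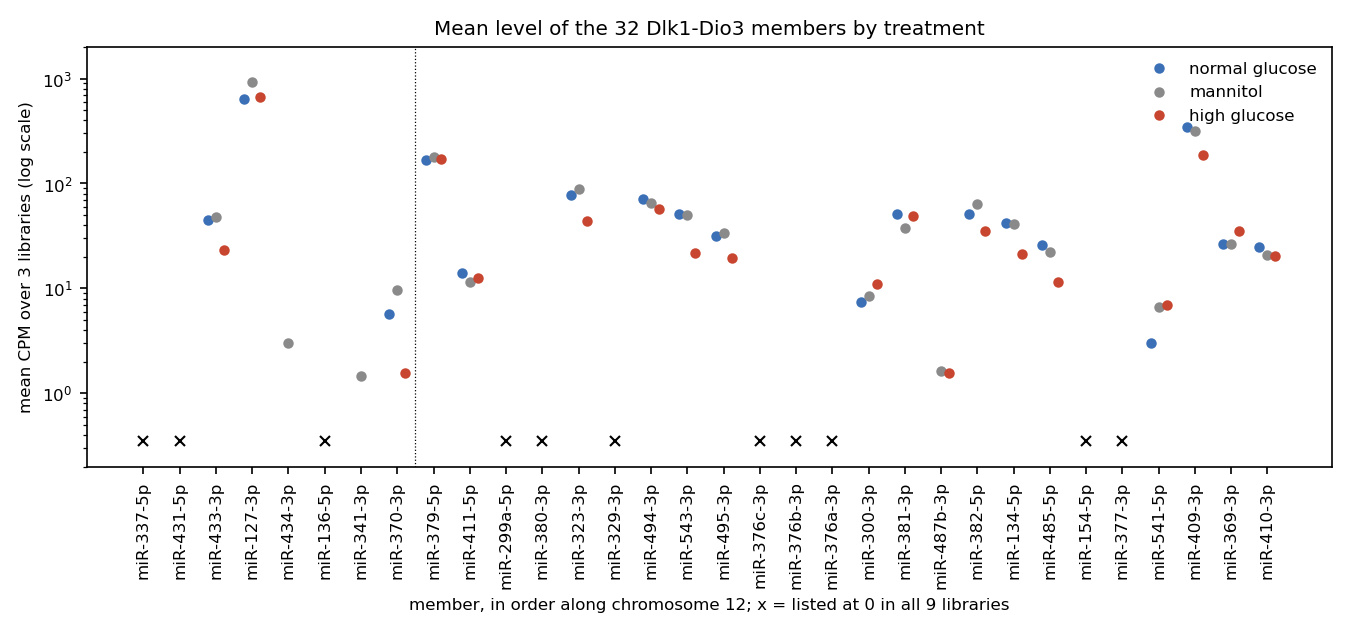
Mean CPM of each member over the 3 libraries of a treatment, on a log axis, with members in their order along the chromosome and a dotted line between the Rtl1 antisense and Rian group (left) and the miR-379 to miR-410 group. A group whose libraries are all at 0 has no point, crosses mark the 11 members listed in no library, and miR-127-3p, miR-409-3p and miR-379-5p stand highest.

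Summed over the 32, the level was 1678 ± 191 CPM under normal glucose, 1959 ± 527 CPM under mannitol and 1391 ± 189 CPM under high glucose (SD, n = 3 each). These are 0.168%, 0.196% and 0.139% of the miRNA counts. The lowest normal glucose library, at 1477 CPM, lay under the highest high glucose library, at 1510 CPM, so the groups overlapped. A single member, miR-127-3p, held 38.2% ± 7.30 of this sum under normal glucose, 46.0% ± 7.06 under mannitol and 47.0% ± 7.09 under high glucose (SD, n = 3 each). Without miR-127-3p the remaining sum was 839 to 1192 CPM in normal glucose, 884 to 1176 CPM with mannitol and 713 to 759 CPM in high glucose. On that sum, all 3 high glucose libraries lay below all 6 control libraries, but the separation was lost on both other scales. Divided by the TMM factor, the highest high glucose library was at 832 and the lowest control at 809, and in the deposited RPM they were at 60.8 and 53.2.

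Among the Rtl1 antisense members, miR-127-3p (hairpin on chromosome 12, 109592846 to 109592915, opposite an Rtl1 exon in GENCODE M21) was the most abundant of the whole locus. It stood at 638.5, 506.8 and 771.3 CPM in normal glucose replicates 1 to 3, at 890.6, 561.5 and 1323 CPM with mannitol, and at 797.0, 458.2 and 731.9 CPM in high glucose. The 3 groups overlapped, and within each the highest library was at least 1.5 times the lowest. Log2 fold changes from edgeR were 0.14 (SE 0.32) for high against normal glucose, -0.34 (SE 0.32) for high glucose against mannitol and 0.48 (SE 0.32) for mannitol against normal glucose. The second turned to 0.04 without mannitol replicate 3, its highest library.

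Its neighbour miR-433-3p (109591715 to 109591838, also opposite an Rtl1 exon) stood at 34.4, 59.8 and 39.7 CPM in normal glucose, 54.9, 34.0 and 56.0 CPM with mannitol, and 26.2, 25.1 and 18.8 CPM in high glucose. Every high glucose library was lower than every control library. Its log2 fold change was -0.88 (SE 0.41, 95% interval -1.75 to -0.0026) against normal glucose and -0.89 (SE 0.41, 95% interval -1.76 to -0.016) against mannitol, with 0.01 (SE 0.40) for mannitol against normal glucose. Neither difference in high glucose passed over all miRNAs (adjusted p = 0.995 and 0.704 in edgeR), although the unadjusted p was 0.0494 and 0.0463 in that fit. Without normal glucose replicate 2, its highest library, the first difference was -0.52. From Rian introns, miR-370-3p was listed in all 3 mannitol libraries (6.92 to 12.04 CPM), in 2 of normal glucose (7.15 and 9.94 CPM) and in 1 of high glucose (4.70 CPM), all near the limit of detection.

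In the miR-379 to miR-410 group, miR-409-3p (109743158 to 109743236, in an intron of Mirg) was the most abundant. It stood at 265.0, 476.5 and 290.8 CPM in normal glucose, 319.7, 226.6 and 395.6 CPM with mannitol, and 211.0, 157.4 and 186.8 CPM in high glucose. High glucose libraries again lay below all 6 controls in CPM, though not in the deposited RPM, and the nearest control was mannitol replicate 2. The log2 fold change was -0.85 (SE 0.34, 95% interval -1.58 to -0.12) against normal glucose (unadjusted p = 0.0251, adjusted p = 0.995 in edgeR) and -0.61 (SE 0.34) against mannitol. Without normal glucose replicate 2, its highest library, the former was -0.43.

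With miR-543-3p (109717258 to 109717333, outside any annotated host in GENCODE M21) the picture was alike at a lower level. It stood at 36.4, 81.9 and 34.3 CPM in normal glucose, 54.9, 42.2 and 51.5 CPM with mannitol, and 22.1, 26.6 and 16.8 CPM in high glucose. No high glucose library reached the lowest control in CPM, but they overlapped once divided by the TMM factor. Its log2 fold changes were -1.17 (SE 0.45, 95% interval -2.14 to -0.20) against normal glucose and -1.01 (SE 0.45, 95% interval -1.97 to -0.051) against mannitol, with unadjusted p = 0.0208 and 0.0403 and adjusted p = 0.995 and 0.704 in edgeR. Normal glucose replicate 2 carried much of the first, which was -0.54 without it.

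The related miR-495-3p was at 23.4, 21.2 and 50.6 CPM in normal glucose, 26.3, 30.8 and 43.2 CPM with mannitol, and 0, 22.7 and 36.0 CPM in high glucose. Its groups overlapped, in contrast to those of miR-543-3p, with a wider error (log2 fold change -0.45, SE 0.82, against normal glucose). The difference between these 2 members was not tested.

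The first hairpin of that group, miR-379-5p (109709060 to 109709125), is known to target a regulator of protein degradation in the endoplasmic reticulum in kidney cells. It stood at 106.5, 193.2 and 197.8 CPM in normal glucose, 158.7, 198.3 and 182.4 CPM with mannitol and 179.3, 159.8 and 176.6 CPM in high glucose. All high glucose libraries lay within the range of normal glucose. The log2 fold change was 0.13 (SE 0.33, 95% interval -0.57 to 0.84) against normal glucose and 0.07 (SE 0.33, 95% interval -0.63 to 0.78) against mannitol, so that differences of over 1 on the log2 scale lay outside both intervals. The first turned to -0.12 without normal glucose replicate 1, and the second to -0.47 when scaled to the library constant, the divisor of the deposited normalized values.

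Of the middle of that group, miR-323-3p stood at 98.7, 70.8 and 63.2 CPM in normal glucose, 85.0, 47.2 and 135.3 CPM with mannitol, and 34.5, 50.9 and 45.0 CPM in high glucose. It was lower in every high glucose library than in every normal glucose library, but mannitol replicate 2 lay among the high glucose values. Log2 fold changes were -0.72 (SE 0.40) against normal glucose and -0.84 (SE 0.40) against mannitol, the latter at -0.37 without mannitol replicate 3. For miR-494-3p the values were 57.8, 68.1 and 89.4 CPM in normal glucose, 52.7, 78.7 and 65.2 CPM with mannitol, and 26.2, 87.7 and 56.0 CPM in high glucose. High glucose held both the lowest and nearly the highest library here. Its log2 fold changes were -0.17 (SE 0.43) and -0.01 (SE 0.43), and they turned to 0.13 and 0.27 without high glucose replicate 1.

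Of the remaining members in the top 10, miR-382-5p, from a Mirg exon, stood at 40.3, 59.8 and 54.2 CPM in normal glucose, 57.9, 48.5 and 85.9 CPM with mannitol, and 34.5, 39.2 and 32.5 CPM in high glucose, again below all controls in CPM, though not when divided by the TMM factor. Next to it, miR-134-5p spread widely within each treatment, at 61.7, 16.6 and 47.9 CPM, 77.5, 14.5 and 30.8 CPM, and 33.1, 11.7 and 19.2 CPM in the same order of groups. In each treatment the library numbered 2 in the titles held its lowest value. Between libraries of the same number, miR-134-5p was lower in high glucose in 3 of 3 pairs with normal glucose and in 3 of 3 with mannitol. For miR-382-5p, miR-409-3p, miR-433-3p and miR-543-3p the same follows in CPM from every high glucose library lying below every control library. It is thus no further result for those 4. No such count over all tested miRNAs is given here, so that of miR-134-5p has no background. In the main fit, log2 fold changes of miR-134-5p were -0.90 (SE 0.58) against normal glucose and -0.77 (SE 0.58) against mannitol, with adjusted p = 0.995 and 0.767 in edgeR. With the replicate block they were -0.82 (SE 0.42) and -0.61 (SE 0.42), with adjusted p = 0.758 and 0.54 in edgeR. For miR-381-3p the values were 35.7, 34.0 and 84.9 CPM, 31.6, 56.6 and 24.2 CPM, and 66.2, 37.6 and 44.2 CPM, with full overlap. The other tested members had means over the 9 libraries of 5.54 to 29.6 CPM.

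**Figure D2:**
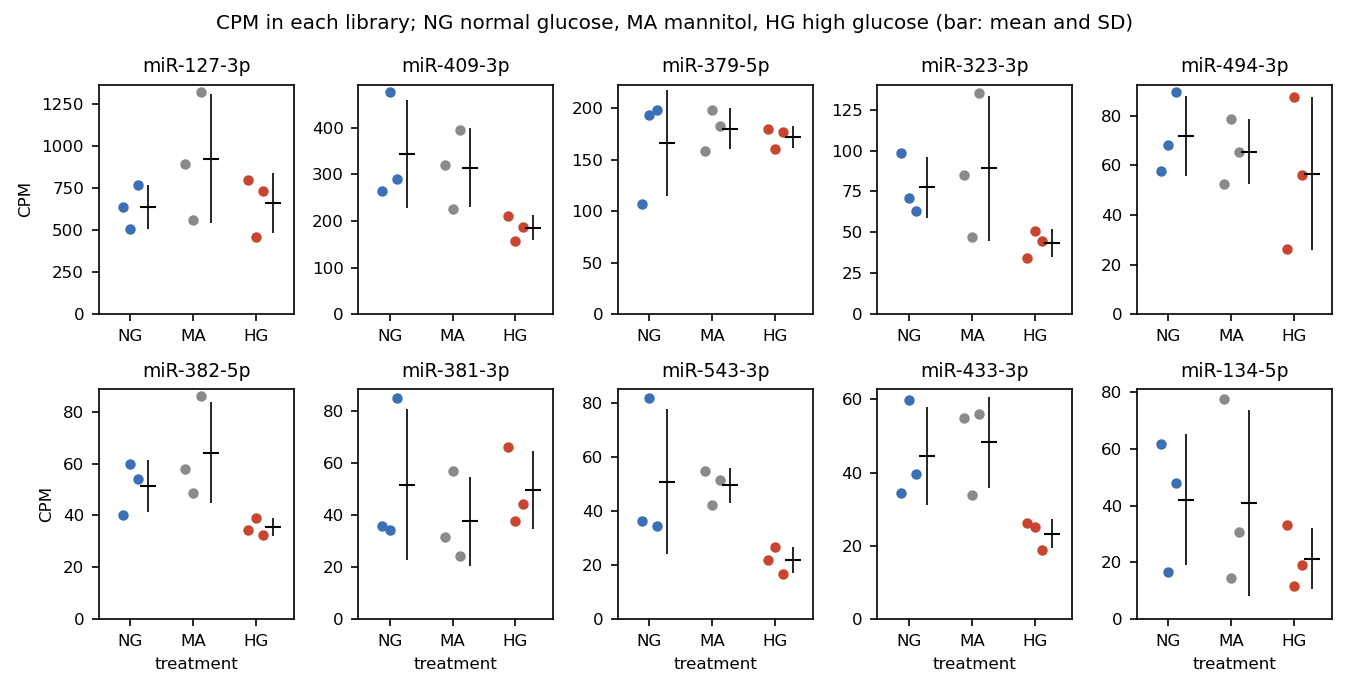
CPM of the 10 most abundant members in each library, with the mean and SD over the 3 libraries of a treatment beside the points; each panel has its own axis from 0. On this scale high glucose points lie below all 6 control points for miR-409-3p, miR-382-5p, miR-543-3p and miR-433-3p, and overlap them for miR-127-3p, miR-379-5p, miR-494-3p and miR-381-3p.

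Across the whole table the test called nothing in high against normal glucose: 0 of 18 tested members and 0% of the 361 miRNAs that passed the expression filter had an adjusted p under 0.05 in edgeR. At an unadjusted p under 0.05 in edgeR, 10 of 361 miRNAs stood out, and lower ones were 3 of 18 members (miR-409-3p, miR-433-3p, miR-543-3p) against 1.94% of all tested miRNAs. That count of members was 0 without normal glucose replicate 2 (1.07% of all lower) and 0 without high glucose replicate 3 (2.16%). It was 1 without high glucose replicate 2 (0.268%) and 0 when scaled to the library constant (0.554%). Without normal glucose replicate 1 it was 4 (3.26%), and without normal glucose replicate 3 it was 3 (5.08%). With any other library left out it was 2 (1.35% to 2.94%). DESeq2 and limma-voom called 0 miRNAs in this comparison too, with 15 and 5 at that unadjusted p, of which 2 (miR-409-3p, miR-543-3p) and 1 (miR-409-3p) were members. With the number in the titles as a replicate block, the same 3 members had an unadjusted p under 0.05 in edgeR, among 19 miRNAs in all and 3.05% lower. Of the 18, 12 were lower and 6 higher in high glucose, with a median log2 fold change of -0.31, beside 193 lower of 361 and a median of -0.04 over all tested miRNAs. The median of the members was -0.52 with the replicate block, -0.10 without normal glucose replicate 3, -0.57 without high glucose replicate 2 and -0.55 without high glucose replicate 3. Libraries did not overlap, with high glucose lower, for 5 of 18 members (miR-323-3p, miR-382-5p, miR-409-3p, miR-433-3p, miR-543-3p) and 6.93% of all tested miRNAs, and with high glucose higher for 0 members and 2.49% of all.

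High glucose against mannitol, the comparison at matched osmolality, shares the high glucose libraries with the one above. Again 0 of 18 members and 0% of all tested miRNAs were called at an adjusted p under 0.05 in edgeR, with 19 miRNAs at an unadjusted p under 0.05. The latter included, as lower, 2 of 18 members (miR-433-3p and miR-543-3p) against 3.05% of all. Limma-voom called 0, with 29 at that unadjusted p, and 2 of these were the same members. DESeq2 called miR-182-5p, which is no member, with 26 miRNAs and 0 members at that p. The edgeR count of 2 members was 0 without mannitol replicate 3 (0.826% of all lower), high glucose replicate 1 (6.95%) or high glucose replicate 3 (2.7%). It was 1 without mannitol replicate 1 (1.08%), and 5 on the library constant, where 16.6% of all were lower at that p. Leaving out normal glucose replicate 2 gave 5 (5.36% of all lower), and normal glucose replicate 3 gave 3 (3.74%). Without mannitol replicate 2 there were 3 lower members and 1 higher, with 10.8% of all lower. With the replicate block it was 4 (miR-323-3p and miR-382-5p in addition), with adjusted p of 0.306 to 0.333 in edgeR, among 52 miRNAs in all and 8.03% lower. Here 11 members were lower and 7 higher, with a median log2 fold change of -0.43 beside -0.04 over all tested miRNAs. The median was -0.16 without mannitol replicate 3. Scaled to the library constant, 17 members were lower, but the median of all tested miRNAs then moved to -0.59, and the members stood 0.34 below it. Libraries did not overlap, with high glucose lower, for 5 of 18 members (miR-370-3p, miR-382-5p, miR-409-3p, miR-433-3p, miR-543-3p) and 7.76% of all, and with high glucose higher for 0 members and 2.49% of all. These counts took listed zeros as 0. For miR-370-3p, the zeros of high glucose replicates 1 and 2 can stand for up to 12.4 and 7.05 CPM. Its mannitol libraries were at 6.92 to 12.04 CPM, so at those levels its groups would overlap.

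Set against both controls at once, every high glucose library lay below every control library for 4 members and 9 of all 361 miRNAs, or 2.49%, so that members made up 4 of those 9. The reverse held for 0 members and 0.277% of all. The 4 were miR-382-5p, miR-409-3p, miR-433-3p and miR-543-3p, which come from both parts of the locus. On CPM divided by the TMM factor, the scale of the edgeR fit, members were 2 (miR-409-3p and miR-433-3p) of 9 such miRNAs (2.49% of all). On the deposited RPM they were 3 (miR-382-5p, miR-433-3p and miR-543-3p) of 11 (3.05%). Of the 4, miR-433-3p thus lay below all controls on each of these scales. Leaving out a library can only keep or raise such a count, so doing so is no check of its stability. With any single library left out the count of members was 4 or 5, with listed zeros taken as 0. Over all miRNAs it was then 14 (3.88%) without normal glucose replicate 1 and 20 (5.54%) without normal glucose replicate 2 or mannitol replicate 2. Without high glucose replicate 1 it was 36 (9.97%). The count against both controls was made after the values had been seen, and no test was run on it.

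**Figure D3:**
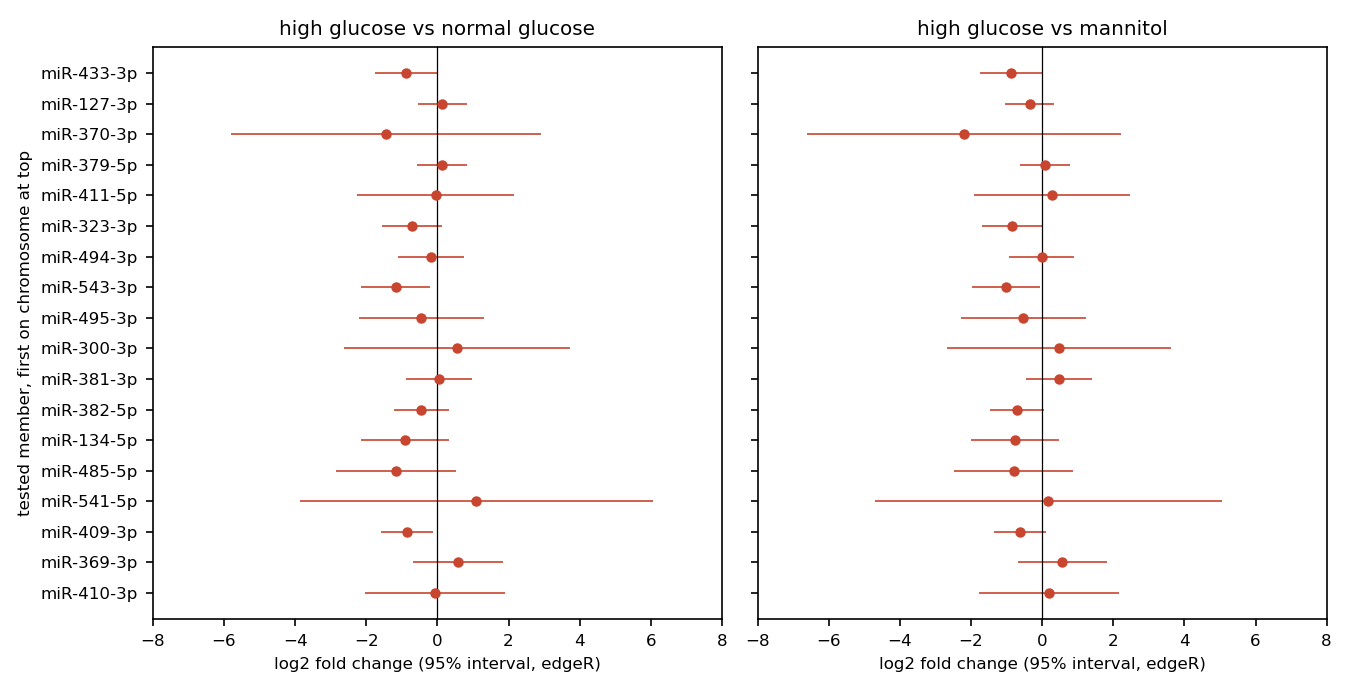
Log2 fold change of each of the 18 tested members with its 95% interval from edgeR, for high glucose against normal glucose (left) and against mannitol (right), in order along the chromosome; the vertical line marks no difference. Intervals of miR-433-3p and miR-543-3p end below 0 in both panels and that of miR-409-3p in the left one, and no difference passed adjustment over all miRNAs.

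Mannitol against normal glucose measured added osmolality alone. By edgeR 0 of 18 members and 0% of all tested miRNAs were called, with 5 miRNAs at an unadjusted p under 0.05. The calls by DESeq2 and by limma-voom were also 0, with 7 and 3 at that p. Lower at that unadjusted p were 0 members and 0.554% of all. Of the 18 members, 10 were higher and 8 lower, with a median log2 fold change of 0.01 beside 0.01 over all tested miRNAs. Full separation of these groups was seen for 0 members, against 1.11% of all with mannitol lower and 2.22% with mannitol higher.

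Members differed in base composition, and fold changes ran with it. Over the 308 tested miRNAs with a mature sequence (85.3%), Spearman's rho between GC content and log2 fold change was -0.378 for high against normal glucose and -0.613 for high glucose against mannitol; among the 17 members of that set it was -0.472 and -0.578. For mannitol against normal glucose, with no high glucose library in the comparison, it ran the other way, at 0.362 over all and 0.248 among the members. These are descriptions across miRNAs that share the same libraries. Against mannitol, 7 of 8 members with at least 50% GC were lower (median -0.73) and 3 of 9 with less GC were (median 0.18), and over all tested miRNAs the medians were -0.45 and 0.22. At the extremes of the tested members, AU-rich miR-369-3p (23.8% GC) had 0.57 (SE 0.59) and miR-370-3p (68.2% GC) -2.20 (SE 2.07). Of the members with the lowest unadjusted p in edgeR against normal glucose, miR-543-3p has 45.5% GC, and miR-409-3p and miR-433-3p have 54.5%. GC as a cause of their differences was not tested.

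With the linear GC trend of all tested miRNAs removed, miR-543-3p had -1.28 against normal glucose and -1.19 against mannitol, and miR-433-3p had -0.77 and -0.70. In the same setting miR-409-3p had -0.74 and -0.43, and miR-127-3p against mannitol went from -0.34 to 0.03. The median of the 17 members was then -0.34 against normal glucose and -0.40 against mannitol, beside -0.02 and -0.07 over all tested miRNAs with a sequence.

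**Figure D4:**
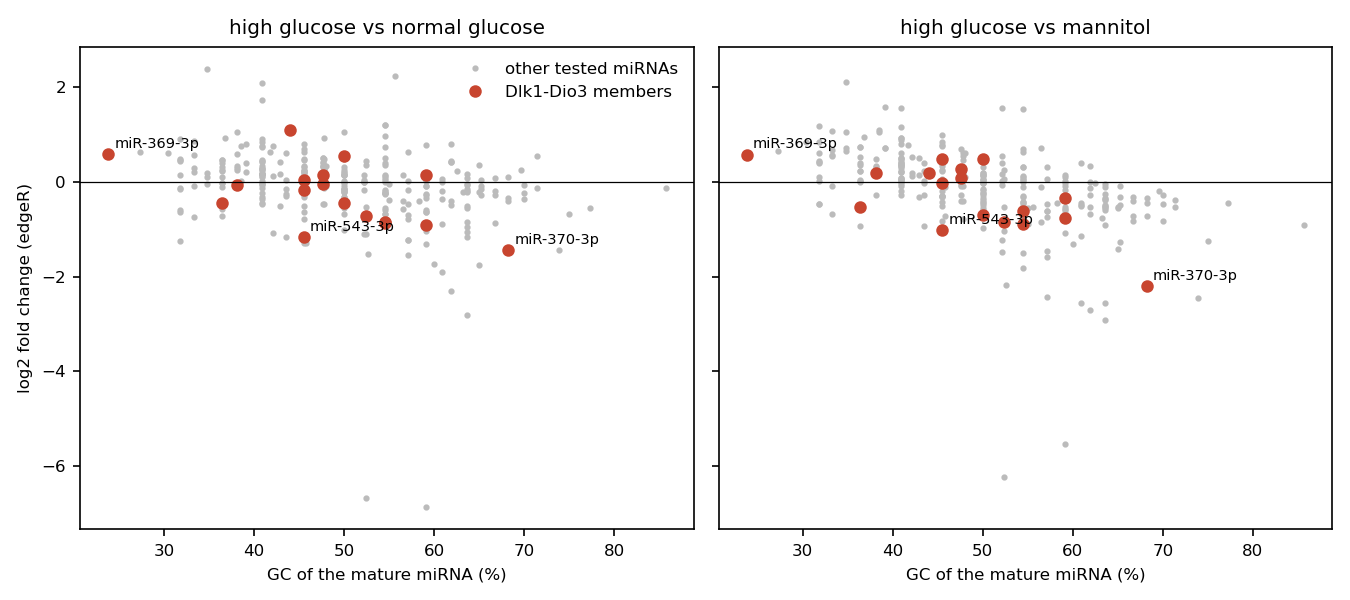
GC content of the mature miRNA against its log2 fold change, for high glucose against normal glucose (left) and against mannitol (right), with 17 members in red among 308 tested miRNAs; points share the same libraries. In both panels fold changes fall as GC rises, in the members as in the rest, and miR-543-3p, at 45.5% GC, lies at -1.17 (left) and -1.01 (right).

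Arm use gave a view within single hairpins. For most listed hairpins only 1 arm was listed. Both were listed in all 9 libraries for miR-382 alone, in 8 for miR-493, in 7 for miR-127, in 5 for miR-409 and in 1 for miR-434. Of miR-127 counts, 96.5% to 100% were on the 3p arm, and of miR-409 counts 94.8% to 100%. In miR-382 the 3p arm held 41.3% ± 4.10 of the counts under normal glucose, 33.0% ± 5.17 under mannitol and 47.6% ± 4.17 under high glucose (SD, n = 3 each). Every high glucose library (43.2% to 51.5%) was above every mannitol library (29.4% to 38.9%), while normal glucose (36.9% to 45.0%) overlapped both. The exact two-sided permutation p was 0.1 against mannitol, the smallest that 3 against 3 allows, and 0.2 against normal glucose, each 0.2 after Benjamini-Hochberg adjustment over the 3 comparisons. Counts per arm were small: the 95% Wilson interval of high glucose replicate 1, with 25 and 19 counts, ran from 29.7% to 57.8%, and such intervals cover counting error only. The opposite arm, miR-382-3p, had no such difference in level, at 26.2 to 41.5 CPM in high glucose and 24.1 to 44.3 CPM in the controls. It has 36.4% GC and miR-382-5p 50%, and the part of GC in the arm share was not tested.

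**Figure D5:**
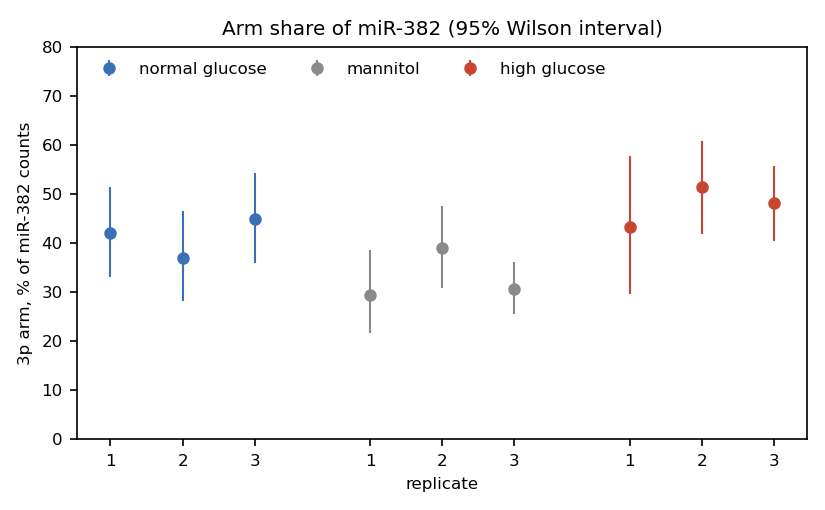
Share of miR-382 counts on the 3p arm in each library, in percent, with 95% Wilson intervals for counting error. The 3 high glucose libraries lie between 43.2% and 51.5%, above the 3 mannitol libraries, and the intervals of single libraries are wide.

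Beyond the 32, 75 further identifiers of the locus were in the tables, opposite arms among them, of which 10 were listed and 7 tested. The most abundant was miR-493-5p, at 98.7 to 165 CPM under normal glucose, 90.3 to 157 CPM under mannitol and 121 to 144 CPM under high glucose. Its mean over the 9 libraries, 133 CPM, was above that of every member but the top 3. Where miR-299a-5p was never listed, its opposite arm miR-299a-3p was listed in all 9 libraries, at 13.5 to 47.6 CPM. All 18 bases of miR-299b-3p, from a hairpin on the other strand of the same site, match the start of miR-299a-3p, so reads of these 2 cannot be assigned with certainty. In high against normal glucose 3 of these 7 were higher and 4 lower, with a median log2 fold change of -0.02, and against mannitol 3 and 4, with a median of -0.03. By edgeR 0 of 7 were called or had an unadjusted p under 0.05 in any comparison.

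Within treatments the 13 members listed in all libraries had coefficients of variation of 19.5% to 76.1% in normal glucose (median 33.5%), 11.1% to 79.9% with mannitol (median 30.4%) and 6.14% to 54.3% in high glucose (median 27.1%). Taking each of the 13 relative to its own mean log2 CPM over the 9 libraries, 2, 8 and 11 lay above it in normal glucose replicates 1 to 3, 9, 6 and 10 did so under mannitol, and 5, 2 and 5 under high glucose. As shares these were 15.4%, 61.5% and 84.6%, then 69.2%, 46.2% and 76.9%, and last 38.5%, 15.4% and 38.5%. Of the 260 miRNAs listed everywhere, 57.7%, 35.8% and 59.2% lay above their own mean in the normal glucose libraries. For the mannitol libraries these shares were 60.4%, 46.5% and 56.2%, and for the high glucose ones 54.2%, 35.8% and 44.6%. The members' share was thus farthest from that of all miRNAs in normal glucose replicate 1, where it was lower, and was higher in normal glucose replicates 2 and 3. In all 3 high glucose libraries it was below that of all miRNAs.

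Other imprinted miRNAs and markers of other cells are given beside these values, with no member of any of these lists called in edgeR. In high glucose against mannitol the Sfmbt2 intron cluster had a median log2 fold change of 0.03 (5 tested) and the list of H19, Mest and Gnas miRNAs -0.32 (3 tested). Those 3 were miR-335-5p of Mest, at 0.83, and miR-296-3p and miR-298-5p of Gnas, at -0.33 and -0.32. No H19 miRNA was among them. Neural markers had -0.44 (3 of 4 lower), striated muscle markers -0.71 (3 of 3 lower) and blood, immune and liver markers -0.39 (4 of 6 lower). Mesenchymal markers had 0.32 (4 of 5 higher), endothelial markers 1.05 (2 of 2 higher) and podocyte-rich miRNAs 0.34 (2 of 3 higher). Against normal glucose the same lists had -0.31, -0.16, -0.21, -0.50, -0.16, 0.04, 0.03 and 0.17 in that order. Summed neural markers ran from 1542 to 2636 CPM in high glucose, from 2144 to 3555 CPM in normal glucose and from 2265 to 3380 CPM with mannitol, with miR-219a-5p at 0 throughout. Their part in the members' levels was not tested.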

How the data were processed

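Small RNA libraries of podocyte vesicles, 3 per treatment, were analysed from 1 table per library. Per the file headers the tables hold total counts, used here as whole-number counts per miRNA, and a normalized value, which is an RPM: the authors divided each count by 1 constant per library, of unstated origin, of which the miRNA counts made up 3.43% to 9.71%. Tools named by the submitters' processing notes are bcl2fastq and BWA, with build mm10. Versions and the miRNA annotation: not given in the sources used here.

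CPM is the count over the sum of miRNA counts of its library. Groups came from the treatment label; an unnumbered title was read as replicate 1. Libraries of a group differed by a chi-square of 88.1 to 765 per degree of freedom, so each was counted as 1 replicate. Titles share numbers across groups, and the labels do not say what a number marks. Deviations from the group means of same-numbered libraries correlated at 0.197 to 0.316 between normal and high glucose. Between mannitol and high glucose they did so at 0.169 to 0.521. In both comparisons with high glucose the numbers were taken as pairs, from the data alone. Between normal glucose and mannitol the correlations were -0.058 to 0.229, which do not settle whether same-numbered libraries are pairs. Pairs in both other comparisons would imply pairs here too. The main fit, the permutation test on arms and the counts of groups not overlapping took no account of pairs. Only the replicate block and the counts within same-numbered libraries did. Tests were edgeR 4.0.16 in R 4.3.3 (TMM, filtering by group, robust quasi-likelihood) on all 9 libraries and all 361 miRNAs that passed, adjusted by Benjamini-Hochberg, threshold 0.05. The code was first run on simulated data with larger differences than the main fit gave for any member. That run does not show the power to find differences of the members' size. EdgeR is meant wherever no tool is named. DESeq2 1.42.0 and limma 3.58.1 were alternatives, as were other scalings, filters, libraries left out and a replicate block. Sequences, GC content and hairpins came from RefSeq GRCm38.p6, the build of mm10, and hosts from GENCODE M21. Values per library are given for the 10 most abundant members and any with an unadjusted p under 0.05, and fold changes for the 5 most abundant and those; fold changes of miR-134-5p, and miR-495-3p, miR-369-3p, miR-370-3p and the members counted for not overlapping were singled out after their values were seen. Members and lists were chosen with earlier results of these data known. The GC setting and the count against both controls were added after seeing the data.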

Additional observations from a re-analysis of the deposited data

How the results depend on the processing

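No member was called in any setting by edgeR, DESeq2 or limma-voom, and other miRNAs were called as follows. In high against normal glucose 2 were called without the expression filter. Against mannitol 3 were called without that filter, 1 by DESeq2 and 0 to 1 with a library left out. In mannitol against normal glucose 1 was called without the filter and 1 with listed zeros set to 9 reads. Scaled to the library constant, the member median was -0.937 in high glucose against mannitol (1 member higher) and 0.496 in mannitol against normal glucose (17 higher), with all tested miRNAs at -0.594 and 0.504. With a library left out, the median against mannitol ran from -0.572 to -0.156, and 6 to 11 members were higher in mannitol against normal glucose. With the GC trend removed 4 of 17 members were higher against mannitol. The count of members below both controls was 2 on the TMM scale, beside 2.49% of all tested miRNAs. Summed members reached 90.4, 152 and 78.9 RPM in normal glucose, mannitol and high glucose on the library constant, and with every identifier of the locus 1951 CPM in normal and 1646 CPM in high glucose.

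Signs of small fold changes turned. Against mannitol in high glucose, miR-379-5p had -0.468 on the library constant, -0.116 with zeros at 9 reads and -0.018 without the GC trend, where miR-127-3p had 0.028. In mannitol against normal glucose, on the library constant, miR-409-3p had 0.416, miR-494-3p 0.358 and miR-543-3p 0.482. There miR-543-3p also had 0.127 in limma-voom, 0.000572 with zeros at 9 reads and 0.0135 with the replicate block, and miR-433-3p had -0.069 without the GC trend. With each library left out in turn, values in high against normal glucose ran from -0.121 to 0.342 for miR-379-5p and from -0.68 to 0.127 for miR-494-3p. In high glucose against mannitol they ran from -0.527 to 0.0388 for miR-127-3p, from -0.0814 to 0.255 for miR-379-5p and from -0.539 to 0.268 for miR-494-3p. In mannitol against normal glucose they ran from -0.463 to 0.23 for miR-409-3p, -0.191 to 0.318 for miR-379-5p, -0.346 to 0.469 for miR-323-3p, -0.331 to 0.0396 for miR-494-3p, -0.387 to 0.54 for miR-543-3p and -0.176 to 0.433 for miR-433-3p. There the highest values of miR-409-3p, miR-379-5p, miR-543-3p and miR-433-3p were those without normal glucose replicate 2. The cause was not tested.

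With the replicate block the member medians were -0.518, -0.451 and 0.039 in the order of the report, and 0 miRNAs were called; the block changed no call. Between normal glucose and mannitol, same-numbered libraries correlated at -0.058 to 0.229, which does not settle whether they are pairs. With the block, 17 miRNAs in place of 5 had an unadjusted p under 0.05 in edgeR in that comparison. Depth limits all members under about 14 CPM, the level of 10 reads in the shallowest library.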
